A study of Mus musculus with 20 samples.

Results

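The BCL2 family genes described here are 10 of the 56239 genes in the count table: the pro-survival genes Bcl2, Bcl2l1 and Mcl1, and the 7 pro-death genes Bcl2l11, Bmf, Bbc3, Pmaip1, Bid, Bax and Bak1. They were chosen by name, and each symbol matched 1 mouse Ensembl gene. The rule used no measured value, but the members were chosen with earlier results of these data known. RNA bound to chromatin, which is rich in transcripts still being made, was sequenced from the pre-B line B3, mouse cells first derived from a lymphoma. Every library came from B3 cells transduced by retrovirus with Ikaros-ERt2, in which IKZF1 is fused to a receptor domain that enters the nucleus on binding 4-hydroxytamoxifen (4-OHT). The cells at 0 h had no treatment, and those at 30 min and at 1, 2, 6, 12, 15, 18, 21 and 24 h had been given 500 nM 4-OHT. Each of the 10 time points has 2 replicates, which makes 20 libraries. No time course of cells without the construct, or without 4-OHT, was analysed here, so the effects of nuclear IKZF1, of 4-OHT and of time in culture cannot be told apart.

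Proteins of the BCL2 family decide whether the outer membrane of mitochondria stays closed. BAX and BAK1 open it and so release cytochrome c, BCL2, BCL-XL (the long product of Bcl2l1) and MCL1 hold them in check, and the BH3-only proteins BIM (Bcl2l11), BMF, PUMA (Bbc3), NOXA (Pmaip1) and BID bind the guardians or activate BAX and BAK1 directly. B cell precursors depend on these guardians, and loss of BIM lets cells live that would otherwise be removed. All values here are RNA on chromatin, and protein was not measured in these libraries.

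Total counts ran from 33296158 to 46868954 per library. Levels are given as CPM, the counts of a gene relative to the size of its library, with edgeR's TMM factors, and, where genes are compared with each other, as CPM per kb of the gene span that no other gene overlaps. All 10 B lineage markers passed the filter on low counts and summed to between 8214 and 16332 CPM in a library. Of 10 T and NK cell markers 5 passed, Lck and Klrb1c among them, and the list summed to 40.9 to 112 CPM. Cd3e and Ncr1 of that list had at most 2 counts in a library. The sums of myeloid and of erythroid markers stayed at or below 3.76 CPM, and that of the fibroblast list at or below 0.194 CPM. Among these, Alas2 has no span free of other genes and Itgam 0.0770%, so they add little or nothing to the sums. In bulk libraries such as these, fewer cells of a kind and less RNA per cell cannot be told apart. Replicates at 12, 18, 21 and 24 h differed more than those at other times, with a chi-square per degree of freedom of 13.3, 20.5, 6.11 and 3.10 against 1.33 to 2.03 elsewhere. The labels do not say whether the replicates are separate cultures, so p-values measure only the spread between these libraries.

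Of the 10 members, 8 had at least 10 counts in at least 2 libraries and could be tested. Pmaip1 (NOXA) had 0 to 3 counts in every library and 15 in all, so a level was not detectable at this depth. Bak1 had 0 counts in all 20 libraries. Its whole span of 9200 bp on chromosome 17 lies under 2 records of Ggnbp1 on the opposite strand, which had 217 and 262 counts in all. Among protein-coding genes lying inside an opposite-strand gene only, 750 of 755 (99.3%) had 0 counts in every library, against 2174 of 11829 (18.4%) of those that overlap no other gene. The listed 0 of Bak1 therefore gives no level for this effector, although the library kit keeps strand. The tested members lie (GRCm38, GENCODE M21) at chr1:106538178-106714274 for Bcl2, chr2:152780668-152831728 for Bcl2l1, chr3:95658788-95663176 for Mcl1, chr2:128126038-128162547 for Bcl2l11, chr2:118528757-118549687 for Bmf, chr7:16308393-16318205 for Bbc3, chr6:120891930-120916853 for Bid and chr7:45461697-45466898 for Bax. Of these, Bcl2 (80.0%), Bid (86.7%) and Bax (82.4%) had part of their span free of other genes, and the rest were free over their whole length.

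The promoters of the 3 guardians and of Bmf are shown because these genes carry the largest shifts of the time course or, for Mcl1, the most matches among the members to the core of the motif that IKZF1 binds, GGGAA. Each window runs from 250 bases before to 50 after a RefSeq transcript start (GRCm38.p6), the one nearest to the gene's 5′ end, and is written 5′ to 3′ on the gene's strand. Capitals mark GGGAA or its reverse complement TTCCC, found on either strand with no overlap between matches. The windows are Bcl2l1 at chr2:152831679-152831978 (minus strand), Bcl2 at chr1:106714241-106714540 (minus), Mcl1 at chr3:95658471-95658770 (plus) and Bmf at chr2:118549637-118549936 (minus).
Bcl2l1: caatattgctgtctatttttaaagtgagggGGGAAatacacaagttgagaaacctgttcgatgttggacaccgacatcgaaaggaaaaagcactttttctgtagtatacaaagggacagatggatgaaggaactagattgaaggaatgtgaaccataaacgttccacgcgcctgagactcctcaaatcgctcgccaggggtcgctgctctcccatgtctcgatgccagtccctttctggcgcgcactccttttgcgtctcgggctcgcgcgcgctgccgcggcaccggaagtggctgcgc
Bcl2: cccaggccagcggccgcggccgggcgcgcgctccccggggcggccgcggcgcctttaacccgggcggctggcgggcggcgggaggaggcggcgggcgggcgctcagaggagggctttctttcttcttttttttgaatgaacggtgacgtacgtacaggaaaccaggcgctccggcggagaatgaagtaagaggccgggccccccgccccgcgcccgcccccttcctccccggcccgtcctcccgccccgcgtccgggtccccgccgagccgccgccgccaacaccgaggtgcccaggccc
Mcl1: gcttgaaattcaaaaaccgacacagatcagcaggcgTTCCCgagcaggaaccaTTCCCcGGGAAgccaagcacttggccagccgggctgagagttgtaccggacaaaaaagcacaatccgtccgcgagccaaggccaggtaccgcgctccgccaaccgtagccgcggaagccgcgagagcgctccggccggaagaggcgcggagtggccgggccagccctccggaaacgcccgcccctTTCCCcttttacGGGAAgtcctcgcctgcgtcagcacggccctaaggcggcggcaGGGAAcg
Bmf: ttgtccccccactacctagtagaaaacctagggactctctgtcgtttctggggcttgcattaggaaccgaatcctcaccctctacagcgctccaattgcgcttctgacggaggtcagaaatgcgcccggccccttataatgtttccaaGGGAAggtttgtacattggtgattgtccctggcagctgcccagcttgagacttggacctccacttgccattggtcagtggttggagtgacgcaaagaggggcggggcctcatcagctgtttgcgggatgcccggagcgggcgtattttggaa
The Mcl1 window held 6 matches, the Bcl2l1 and Bmf windows shown 1 each and the Bcl2 window none. The study counted the shorter motifs GGAA and GGGA and their reverse complements, which are not marked here. The Bcl2 window does contain GGAA and GGGA. The other 2 windows of Bcl2l1, at starts further inside the gene, held 0 and 2 matches, and those of Bmf 3 and 1. At least 1 match stood in 62.7% of 32851 windows of this length and at least 6 in 0.0883%. Among the other members, in the window nearest to the 5′ end, Bak1 had 3, Bax 2, Bbc3 1, and Bcl2l11 and Bid none. A match is a description of these letters and was not tested as a binding site.

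The first question was how each member moved after 4-OHT. All 3 guardians were lower at 1, 2 and 6 h, but they then parted: Bcl2 went on falling to 5.74-fold below 0 h at 24 h, Bcl2l1 came back and rose above its start, and Mcl1 overlapped its start at 24 h. On the pro-death side Bid rose and then fell, Bax followed a like course with smaller changes, and Bcl2l11 rose in small steps. Bbc3 dipped and overlapped its start again only at 24 h, and Bmf rose 17.5-fold from a very low level. A gene passed the test at an adjusted p below 0.01 in the quasi-likelihood test of edgeR, adjusted by Benjamini-Hochberg over 16601 genes, and is referred to as called where the fold change was also above 2. Over the whole time course 8 of the 8 tested members passed and 3 (Bcl2, Bcl2l1 and Bmf) were called, beside 88.0% and 51.9% of all genes tested.

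**Figure D1:**
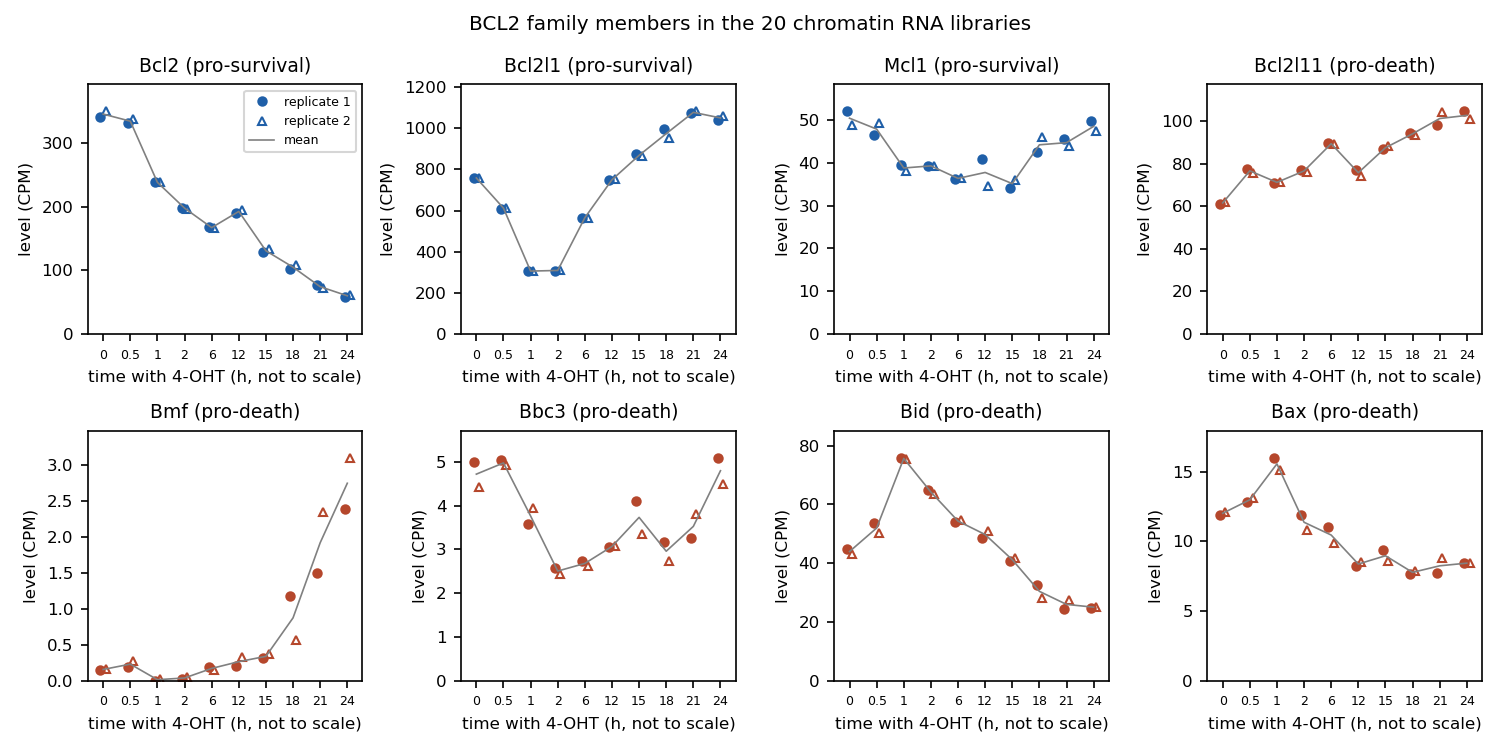
Level of each tested member in CPM (vertical axis, from 0) in the 20 libraries, by time with 4-OHT in h (horizontal axis, time points evenly spaced and not to scale); filled circles are replicate 1, open triangles replicate 2, and the grey line joins their means. Bcl2 drops to 58.5 and 61.9 CPM after 24 h, Bcl2l1 has its low at 1 and 2 h, and Bmf stays at or below 0.364 CPM up to 15 h.

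Bcl2, the guardian first found at a lymphoma breakpoint, stood at 341 and 350.4 CPM at 0 h, 331 and 338 after 30 min, 239 and 238 after 1 h, 199 and 197 after 2 h and 168 and 167 after 6 h. It stood at 191 and 195 CPM after 12 h, 129 and 133 after 15 h, 102 and 108 after 18 h, 77.3 and 71.8 after 21 h and 58.5 and 61.9 after 24 h. From 30 min on, both libraries of every time point lay below both at 0 h, and only between 6 and 12 h did the level go up. The log2 fold change was -0.05 ± 0.04 (SE) at 30 min, which did not pass, then -0.54 ± 0.04 at 1 h, -1.05 ± 0.04 at 6 h and -2.52 ± 0.04 at 24 h (adjusted p = 3.82e-22). The step up from 6 to 12 h was small, 0.20 ± 0.04 on the log2 scale, but passed (adjusted p = 0.000301), and the replicates at 12 h are among those that differed most over all genes. On the log2 scale the fall was at its midpoint at 14.2 h, between 14.2 and 14.3 h in the replicates taken singly. The midpoint was read from a straight line between the 12 and 15 h values. It takes 24 h as the end, although Bcl2 was still falling from 21 to 24 h.

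Bcl2l1, whose main product BCL-XL protects pre-B cells, had 761 and 757 CPM at 0 h, 610.2 and 614 after 30 min, 305 and 307 after 1 h and 307 and 312 after 2 h. It then had 566 and 565 CPM after 6 h, 748 and 752 after 12 h, 874 and 863 after 15 h, 994 and 954 after 18 h, 1072 and 1083 after 21 h and 1041 and 1059.9 after 24 h. The libraries from 30 min to 12 h all lay below both at 0 h, and those from 15 h on all lay above. It was the only member to pass the test as lower at 30 min: the log2 fold change was -0.31 ± 0.03 (SE) at 30 min (adjusted p = 1.62e-07), and -1.31 ± 0.03 at 1 h, or 2.48-fold lower (adjusted p = 2.24e-18). The difference at 12 h was -0.02 ± 0.03 (adjusted p = 0.628) and at 24 h 0.47 ± 0.03, or 1.38-fold higher (adjusted p = 2.47e-12). From 2 to 24 h the gene rose 3.40-fold. The fall on the log2 scale was at its midpoint at 40.4 min (40.2 and 40.5 min in the single replicates). This was read from a straight line between 30 min and 1 h, with no sample in between. The closeness of the replicates is therefore no measure of how precise the timing is.

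Mcl1, a guardian with a short-lived protein, moved least of the 3. It stood at 52.0 and 48.8 CPM at 0 h, 46.4 and 49.4 after 30 min, 39.5 and 38.1 after 1 h, 39.4 and 39.2 after 2 h, 36.3 and 36.5 after 6 h, 40.8 and 34.7 after 12 h and 34.2 and 36.1 after 15 h. Later levels were 42.4 and 46.0 CPM after 18 h, 45.6 and 43.9 after 21 h and 49.7 and 47.3 after 24 h. The libraries from 1 to 21 h lay below both at 0 h, and those at 24 h overlapped them. The largest difference was -0.52 ± 0.06 (log2, SE) at 15 h (adjusted p = 2.10e-07), while that at 24 h was -0.06 ± 0.06 (adjusted p = 0.415). Scaled by library totals alone the difference at 24 h was -0.31 and passed. The fall at 18 h (-0.19 ± 0.06, adjusted p = 0.00838) no longer passed in 7 of the alternative analyses, among them those without 0 h replicate 1 or without 18 h replicate 1.

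**Figure D2:**
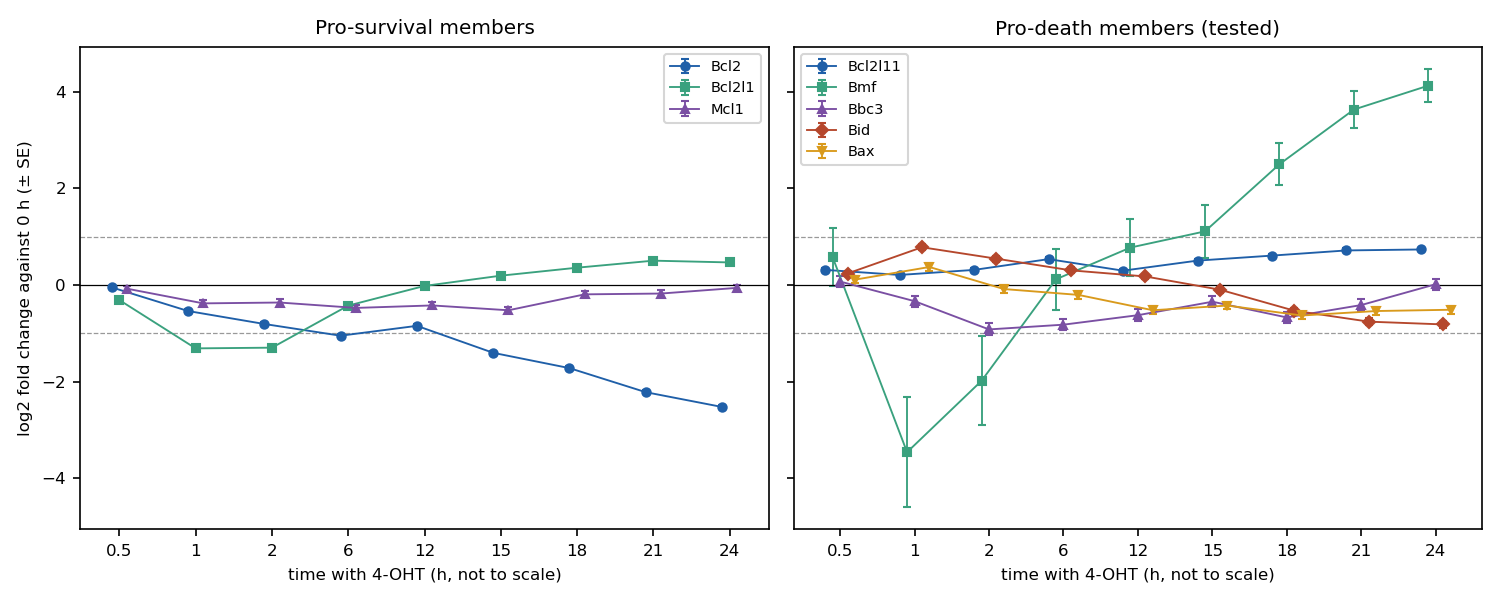
Log2 fold change against 0 h (vertical axis) by time with 4-OHT in h (horizontal axis, evenly spaced and not to scale) for the 3 pro-survival members (left) and the 5 tested pro-death members (right); points are edgeR estimates from 2 libraries a time point, bars are SE and dashed lines mark 2-fold. All 3 guardians are below 0 at 1, 2 and 6 h, Bcl2 ends at -2.52, and Bmf has the widest bars and ends at 4.13.

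Among the BH3-only genes Bcl2l11 (BIM) rose within 30 min and stayed up. It stood at 61.0 and 62.0 CPM at 0 h, 77.5 and 75.6 after 30 min, 71.0 and 71.3 after 1 h, 77.1 and 75.9 after 2 h and 89.5 and 89.2 after 6 h. Levels were 77.2 and 74.2 CPM after 12 h and then went up to 105 and 101 after 24 h. No induced library reached as low as either library at 0 h. The log2 fold change was 0.32 ± 0.04 (SE) at 30 min (adjusted p = 9.31e-06) and 0.74 ± 0.04, or 1.67-fold, at 24 h (adjusted p = 2.16e-13), and it passed at every time between, always under 2-fold. At 12 h it fell against 6 h, by 0.24 on the log2 scale (adjusted p = 5.91e-05), the same interval in which Bcl2 went up.

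Bmf, whose product binds the guardians when cells detach or lose growth signals, was the lowest of the tested members, and its values are best read as counts. Both libraries at 0 h had 7 counts, and those at 30 min 7 and 12. At 1 h there were 0 and 1 and at 2 h 1 and 2, so every library of these times was below every library before them. The counts were 8 and 7 after 6 h, 7 and 13 after 12 h, 12 and 15 after 15 h, 52 and 22 after 18 h, 44 and 86 after 21 h and 80 and 114 after 24 h. From 18 h on, all libraries exceeded every earlier one. Relative to 0 h the rate of counts at 1 h was 0.0728 (exact 95% interval 0.00172 to 0.478) and at 2 h 0.238 (0.0439 to 0.854), intervals that cover counting error only. Neither difference passed the test over all genes (adjusted p = 0.0166 and 0.0736 in the test of edgeR), although the step from 30 min to 1 h did (adjusted p = 0.00354). That step did not pass without 1 h replicate 1, without 30 min replicate 2, or in DESeq2. The rise was 5.67-fold at 18 h (adjusted p = 2.30e-05), 12.4-fold at 21 h and 17.5-fold at 24 h (log2 4.13 ± 0.35 SE, adjusted p = 4.04e-10). Its replicates at 18 h differed by more than 2-fold (1.17 and 0.568 CPM), and the steps from 15 to 18 h and from 18 to 21 h, each past the threshold, rested on single libraries. The first (log2 1.39) did not pass without either library at 15 h or without 18 h replicate 1 (0.75), and the second (log2 1.13) did not without 18 h replicate 2 (0.73) or 21 h replicate 2 (0.75).

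Bbc3 (PUMA), best known as a target of p53, dipped and was back at its 0 h level only at 24 h. It stood at 5.01 and 4.44 CPM at 0 h, 5.04 and 4.92 after 30 min, 3.58 and 3.96 after 1 h, 2.58 and 2.43 after 2 h and 2.73 and 2.63 after 6 h, and at 24 h it had 5.10 and 4.51. Every library from 1 to 21 h lay below both at 0 h, and those at 24 h overlapped them. The log2 fold change was -0.92 ± 0.12 (SE) at 2 h (adjusted p = 1.70e-06) and 0.02 ± 0.11 at 24 h (adjusted p = 0.882). In between, Bbc3 passed as lower at 6 h (-0.82, adjusted p = 3.75e-06) and 12 h (-0.62, adjusted p = 0.000111). It also passed at 18 h (-0.67, adjusted p = 3.09e-05) and 21 h (-0.41, adjusted p = 0.00402), but not at 15 h (-0.34, adjusted p = 0.0109).

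Bid, which links death receptors to mitochondria once cut by caspase 8, went up first and then down. It had 44.8 and 43.1 CPM at 0 h, 53.8 and 50.2 after 30 min, 75.9 and 75.4 after 1 h, 64.7 and 63.7 after 2 h and 54.0 and 54.7 after 6 h. After 12 h (48.5 and 51.0 CPM) it went through 40.7 and 41.6 after 15 h, 32.7 and 28.1 after 18 h and 24.4 and 27.5 after 21 h to 24.8 and 25.2 after 24 h. The libraries up to 12 h lay above both at 0 h and those from 15 h on below. Bid rose by 0.78 ± 0.06 (log2, SE) at 1 h (adjusted p = 3.75e-10) and fell by 0.81 ± 0.07 at 24 h (adjusted p = 1.83e-10), and between 2 and 24 h it fell 2.57-fold. The early rise at 30 min (0.24 ± 0.06, adjusted p = 0.00870) did not pass in 6 of the alternative analyses, among them those without any 1 of the 4 libraries at 0 h and 30 min.

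Bax, the effector that could be measured, took a similar course within a narrower range. Its level was 11.9 and 12.1 CPM at 0 h, 12.8 and 13.1 after 30 min, 16.0 and 15.1 after 1 h, 11.9 and 10.8 after 2 h, 11 and 9.87 after 6 h and 8.25 and 8.50 after 12 h, and 8.44 in both libraries at 24 h. Both libraries at 1 h lay above, and all from 6 h on below, those at 0 h. Bax rose by 0.38 ± 0.07 (log2, SE) at 1 h (adjusted p = 0.000214) and fell by 0.51 ± 0.08 at 24 h (adjusted p = 7.78e-06), with its lowest fitted value, -0.63, at 18 h.

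Counted over the members, the calls beyond 2-fold were few at every time. None of 8 was called at 30 min (0.464% of all genes tested) or at 12 h (23.1%) by edgeR, and as none had a 2-fold change there the count was also 0 at an unadjusted p below 0.05 and in DESeq2. There was 1 at 1 h (Bcl2l1, 7.16%), 1 at 2 h (Bcl2l1, 13.2%), 1 at 6 h (Bcl2, 20.1%) and 1 at 15 h (Bcl2, 28.4%), and 2 (Bcl2 lower and Bmf higher) at 18 h (36.6%), 21 h (39.5%) and 24 h (40.1%). At any fold, 3 of 8 passed at 30 min (8.44% of all genes), 6 at 1 h (36.3%), 6 at 2 h (47.7%), 6 at 6 h (57.3%), 5 at 12 h (60.7%), 5 at 15 h (65.7%), 8 at 18 h (71.3%), 7 at 21 h (71.6%) and 6 at 24 h (71.5%). Changes under 2-fold thus made up most of what passed. Among steps between neighbouring times, that from 30 min to 1 h had the most members past the test, as 7 of 8 passed at any fold (32.0% of all genes tested), 5 of them lower (Bcl2, Bcl2l1, Mcl1, Bmf and Bbc3, 15.7%) and 2 higher (Bid and Bax, 16.3%). Bcl2, Bcl2l1 and Bid passed there in every alternative analysis, whereas Bax did not in 6, Bbc3 in 5, Bmf in 3 and Mcl1 in 1. Later steps had 4 members past the test from 1 to 2 h (22.3%), from 2 to 6 h (34.4%), from 6 to 12 h (27.5%) and from 12 to 15 h (19.6%), 5 from 15 to 18 h (29.1%), 3 from 18 to 21 h (12.4%) and 1, Bcl2, from 21 to 24 h (8.63%). Beyond 2-fold only Bmf was called in any step, at 1 h (4.76% of all genes), 18 h (1.10%) and 21 h (0.651%), and the other steps had no call (2.62%, 7.17%, 4.79%, 0.717% and 0.247%, in order of time), with 1 more, Bmf from 2 to 6 h, at an unadjusted p below 0.05 and 2-fold. Bcl2l1 lay at the edge of the call from 30 min to 1 h, 1.9995-fold lower (log2 -0.9997, adjusted p = 4.24e-16), and it was past 2-fold there with DESeq2's size factors, with library totals and in DESeq2's test. Between 2 and 24 h all 8 passed (66.5% of all genes) and 4 were called (32.8%): Bcl2 and Bid lower, Bcl2l1 and Bmf higher. At 30 min the 3 that passed were Bcl2l1, which was lower, and Bcl2l11 and Bid, which were higher. Over the 8 members the median log2 fold change was 0.09 (30 min), -0.36 (1 h), -0.58 (2 h) and -0.02 (24 h), and over all 16601 genes it was 0.01, 0.02, 0.03 and -0.01.

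The second question was how the pro-survival side stood against the pro-death side. Per kb, the guardians Bcl2l1 and Mcl1 exceeded every pro-death member at every time, and the guardian that fell most, Bcl2, was a small part of the sum throughout. At 0 h the levels were, in CPM per kb as mean ± SD (n = 2), 14.9 ± 0.0526 for Bcl2l1, 11.5 ± 0.523 for Mcl1, 2.80 ± 0.0385 for Bax, 2.45 ± 0.0449 for Bcl2, 2.03 ± 0.0581 for Bid, 1.68 ± 0.0194 for Bcl2l11, 0.481 ± 0.0415 for Bbc3 and 0.00738 ± 0.000216 for Bmf. No neighbours in this order overlapped between their 2 libraries. At 24 h Bcl2l1 (20.6 ± 0.258) and Mcl1 (11.1 ± 0.379) still led, followed by Bcl2l11 (2.81 ± 0.0749), Bax (1.97 ± 0.000134), Bid (1.16 ± 0.0122), Bbc3 (0.489 ± 0.0428), Bcl2 (0.427 ± 0.0169) and Bmf (0.131 ± 0.0239). Bcl2 thus went from the fourth place to the seventh, and Bcl2l11 from the sixth to the third. Levels per kb rest on whole spans, exons and introns together, and exons make up 5.20% of the span of Bcl2 and 8.98% of Bcl2l1 but 77.9% of the short Mcl1, so spliced RNA can weigh more in the level of Mcl1.

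The ratio of the summed guardian levels to the summed pro-death levels, both in CPM per kb, was 4.14 and 4.07 at 0 h, 3.06 and 3.22 after 30 min, 1.74 and 1.75 after 1 h and 2.01 and 2.11 after 2 h. It was 2.63 and 2.72 after 6 h, 3.83 and 3.58 after 12 h, 3.75 and 3.89 after 15 h, 4.76 and 4.98 after 18 h, 5.31 and 4.75 after 21 h and 4.85 and 4.92 after 24 h. Every library from 30 min to 15 h lay below both at 0 h and every one from 18 h on above both. Of the guardian sum, Bcl2l1 gave 51.1% and 52.1% at the start, 35.9% and 36.7% by 1 h and 63.5% and 64.9% by 24 h, while Bcl2 gave 8.30% and 8.75% at the start and 1.29% and 1.37% by the end. The pro-death sum went from 7.04 and 6.99 CPM per kb at 0 h to 9.56 and 9.39 after 1 h and to 6.62 and 6.50 after 24 h. Bak1 and the overlapped parts of Bcl2, Bid and Bax add nothing to these sums.

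**Figure D3:**
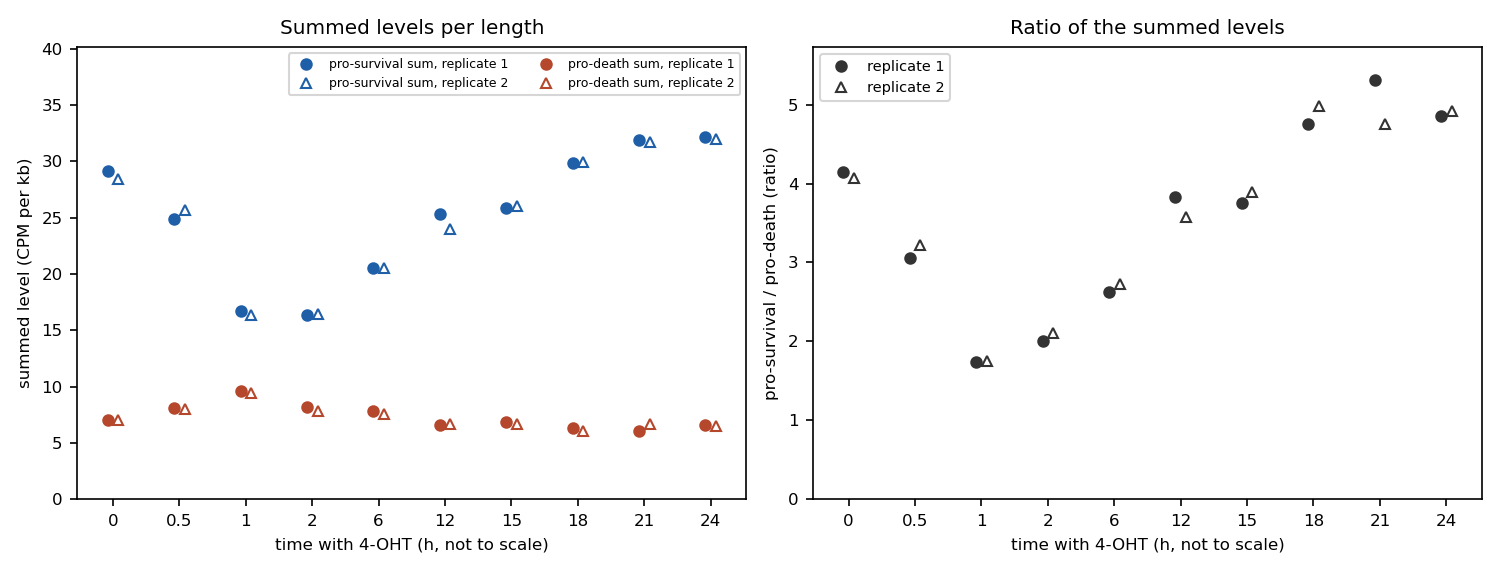
Left, summed levels in CPM per kb (vertical axis, from 0) of the 3 pro-survival members (blue) and of the pro-death members other than Bak1 (red) in each library by time with 4-OHT in h (evenly spaced, not to scale). Bak1 has no span free of other genes and is left out. Right, the ratio of these sums in each library, with filled circles for replicate 1 and open triangles for replicate 2. The ratio is lowest at 1 h, 1.74 and 1.75, and above both libraries at 0 h from 18 h on.

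A score that weights each gene alike gave another picture late in the time course. The mean log2 CPM of the 3 guardians minus that of the 7 pro-death members changed from 0 h by -0.32 after 30 min (-0.40 and -0.23 in the replicates), by -0.70 after 1 h (-0.59 and -0.80), by -0.72 after 2 h (-0.81 and -0.63) and by -1.17 after 24 h (-1.25 and -1.09). Bak1 and Pmaip1 have no measured level and enter this score almost as the prior counts alone. With only the 5 tested pro-death members, a choice made after seeing the data, the change was -0.54 after 2 h and -1.34 after 24 h. The log2 ratio of the sums changed by -0.998 at 2 h (-1.05 and -0.95) and by 0.25 at 24 h (0.23 and 0.27). At 1 and 2 h both measures were thus lower than at 0 h in both replicates, whereas at 24 h they had opposite signs. Without Bcl2 the equally weighted change at 24 h was -0.26, and without Bmf it was -0.62, so these genes carried much of it. No p is given for either score, since both are built on a chosen list.

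In their profiles over the 10 time points, the members of a side did not move as one, and several pairs from opposite sides ran together. Across the 10 mean log2 CPM values, Bcl2l1 had a Pearson r of 0.93 with Bmf but of 0.38 with Mcl1 and -0.59 with Bcl2. Bcl2 had 0.79 with Bid, 0.77 with Bax and 0.12 with Bbc3, but -0.76 with Bmf. Bmf and Bid ran opposite to each other (r = -0.97), as did Bcl2 and Bcl2l11 (r = -0.92) and Bcl2l1 and Bid (r = -0.91). The time points share the same libraries for both genes of a pair and Bmf rests on few counts, so these values are descriptions. A small constant was added to CPM before the log. The 0 and 1 counts of Bmf at 1 h enter as a very low value that depends on it, so each r with Bmf does too. Over the same 10 points, the highest r was sought among 7875 genes (7876 for Bmf) averaging at least 10 CPM. For Bcl2 it was Hnrnpdl (r = 0.993) followed by Nup155 (r = 0.993). For Bcl2l1 it was Zfp991 (r = 0.982) followed by Mrc1 (r = 0.981), and for Bmf Itgav (r = 0.978) followed by Klf7 (r = 0.977). The best of so many genes can reach a high r over 10 points, and r ignores the size of a change. At 24 h the log2 fold changes were -1.06 and -1.57 beside -2.52 for Bcl2. They were 0.30 and 0.61 beside 0.47 for Bcl2l1, and 0.49 and 1.02 beside 4.13 for Bmf. Hnrnpdl encodes an RNA-binding protein, Nup155 a subunit of the nuclear pore, Mrc1 the mannose receptor, Itgav an integrin chain and Klf7 a zinc finger factor.

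The other genes of the pathway were taken from lists of apoptosis genes. Of 17 other BCL2 family genes 9 could be tested. At 24 h, when 40.1% of all genes tested were called in either direction, Bok was called lower and Bnip3l and Bcl2l14 higher, and the median log2 fold change was -0.10. Bnip3l (NIX), which marks mitochondria for removal, went from 25.0 and 24.0 CPM at 0 h to 64.1 and 65.7 after 24 h, 2.65-fold higher (adjusted p = 9.97e-17). At 2 h, beside 6.91% of all genes called lower and 6.25% higher, Bok, a relative of BAX, was lower (-1.13 ± 0.21) and Bnip3 higher (1.11 ± 0.09). Bcl2l2 (BCL-W), the guardian most like Bcl2l1, has 1.32% of its span free of other genes, and it had 0 to 7 counts in a library. The Bcl2a1 copies Bcl2a1a, Bcl2a1b and Bcl2a1d, which are near-identical and can share reads, had at most 1 count in a library. Bcl2a1d has no span free of other genes and Bcl2a1b 1.97%, so their counts give no level, whereas Bcl2a1a is free over its whole length.

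Downstream of the mitochondria, 14 of 16 apoptosome and caspase genes were tested, with 5 called lower and 2 higher at 24 h, and a median of -0.33 at 24 h. Over all genes tested 40.1% were called in either direction at that time. Htra2, a mitochondrial protease that binds inhibitors of apoptosis, had 18.9 and 18.7 CPM at 0 h and 5.28 and 5.08 after 24 h, 3.64-fold lower (adjusted p = 5.72e-16). Endog, a nuclease of mitochondria, was 3.87-fold lower at 24 h, and Cycs (cytochrome c) and Vdac1 were also called lower. Casp9, the initiator caspase of the apoptosome, was 3.07-fold and Casp6 4.44-fold higher. Diablo had 0 counts in every library, and none of its span is free of other genes.

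Of 10 inhibitors of apoptosis tested, 6 were called higher and 1 lower at 24 h. Of all 16601 genes tested, 3323 were called higher and 3329 lower. The median of the list was 1.14 against -0.01 over all genes. Most of the higher calls were the Naip genes named below, so the count and the median lean on near-identical copies. None of the 10 had a 2-fold change at 2 h, when 13.2% of all genes tested were called. Birc3 (cIAP2), a ubiquitin ligase of TNF receptor complexes, rose from 48.6 and 49.3 CPM at 0 h to 166 and 171 after 24 h, or 3.45-fold (adjusted p = 6.38e-20). Birc2 was called higher too, and so were Naip1, Naip2, Naip5 (3.42-fold) and Naip6 (2.53-fold), sensors of bacterial proteins whose near-identical copies can share reads and are therefore uncertain singly. Birc5 (survivin), which works in cell division as well, fell from 30.8 and 30.9 CPM to 3.88 and 4.42, or 7.41-fold (adjusted p = 5.15e-18).

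Of 11 death receptor genes 9 were tested, with 1 called higher at 2 h (Fas), beside 6.25% of all genes tested. At 24 h 1 was called higher and 2 lower, when 40.1% of all genes tested were called in either direction. Fas, the receptor whose signal reaches mitochondria through BID, had 1.19 and 0.856 CPM at 0 h, 3.18 and 3.17 after 2 h and 11.6 and 11.4 after 24 h, 11.2-fold higher (adjusted p = 2.22e-17). Every later library given here was above both at 0 h, while Bid itself was lower at 24 h. Tnfrsf1b was 2.63-fold lower at 24 h, and Tnfsf10, the ligand TRAIL, was also called lower. The median of the list was 0.16.

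Of 22 genes for p53 and its targets 17 were tested, and at 24 h 4 were called lower and 3 higher, with a median of -0.24. Over all genes tested 40.1% were called in either direction at 24 h, close to the share in this list. Aen fell 6.58-fold, Cdkn1a (p21, an inhibitor of the cell cycle) 5.18-fold and Sesn2 3.65-fold, while Trp53inp1, a stress-induced nuclear protein, rose from 21.3 and 22.9 CPM at 0 h to 557 and 551 after 24 h, or 25.1-fold (adjusted p = 1.09e-21), and Sesn1 rose 3.70-fold. Btg2 was also called higher, and Eda2r, with 12 and 11 counts at 0 h and 0 in both libraries at 24 h, lower. Of the p53 targets among the BCL2 family members, Bax was lower at 24 h, Bbc3 did not pass and Pmaip1 could not be tested.

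Of 11 genes that control the turnover of MCL1 and BH3-only proteins 9 were tested. None had a 2-fold change at 2 h, when 13.2% of all genes tested were called. At 24 h Dynll2 was called lower and Trim17, Fbxo10 and Btrc higher, beside 40.1% of all genes tested called in either direction. Dynll2, a dynein light chain that tethers BMF, was 3.23-fold lower, from 14.8 and 14.5 CPM to 4.59 and 4.48 (adjusted p = 1.30e-12). Btrc, a substrate receptor of a ubiquitin ligase, rose 2.58-fold, Trim17, a ligase for MCL1, 2.34-fold, and Fbxo10, a receptor that targets BCL2, 2.08-fold. Scaled by library totals alone, 2 of these 4 calls were left. Fbxw7, another receptor for MCL1, had 0 counts in every library and no span free of other genes.

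**Figure D4:**
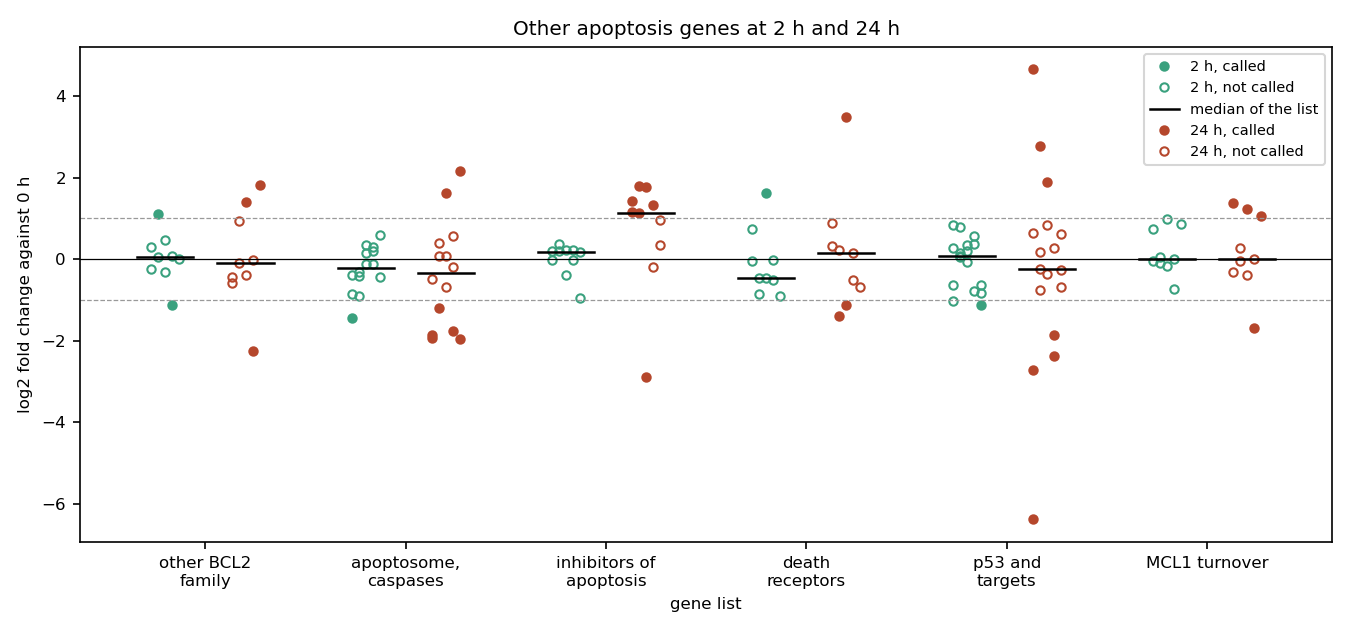
Log2 fold change against 0 h (vertical axis) of the tested genes in 6 lists of apoptosis genes (horizontal axis), at 2 h (green) and 24 h (red); filled points were called (adjusted p below 0.01 and more than 2-fold), open points were not, black bars are list medians and dashed lines mark 2-fold. The inhibitors of apoptosis, a list with several near-identical Naip genes, have a median of 1.14 at 24 h. Trp53inp1 is the highest point, and the lowest is Eda2r, whose fitted value rests on 0 counts at 24 h.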

How the data were processed

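Raw counts per gene were deposited by the authors as whole numbers, 1 column for each of the 20 libraries, without normalization. Per the submitters' notes and the study's methods, reads from a directional, ribosome-depleted kit were processed with CASAVA 2.17, aligned to GRCm38 (mm10) through nf-core/rnaseq and counted with featureCounts including introns; the strand setting and annotation release are not given in the sources used here. Depth limits precision, and intervals cover counting error only.

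A filter of at least 10 counts in 2 or more libraries was set, and the genes left were tested by the quasi-likelihood method of edgeR 4.0.16 in R 4.3.3 (TMM factors, time point as a factor, all 20 libraries, 10 residual degrees of freedom), with Benjamini-Hochberg adjustment over 16601 genes. Thresholds were an adjusted p of 0.01 and a fold change of 2. The score of guardians against pro-death members used 2 prior counts. Gene positions came from GENCODE M21 and promoters from RefSeq. Named were all 10 members, up to 3 called genes a direction from each list with the largest fold change at 24 h among those averaging at least 1 CPM, and the 2 genes most like each called member among those averaging at least 10 CPM; other genes were named after their values were seen. One gene that this rule names is not reported here. The members and lists were chosen with earlier results of these data known. Only the test of 24 h against 0 h was run on simulated counts, with changes set in genes of higher count. No other contrast, score, midpoint or correlation was simulated. Alternatives were DESeq2 1.42.0 (size factors or test), library totals, other filters and thresholds, a replicate block, a fit of only the libraries compared, and leaving out single libraries or members.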

Additional observations from a re-analysis of the deposited data

How the results depend on the processing

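Over 96 fold changes of members, 971 of 1045 values from alternative analyses kept their direction and side of the threshold, 70 no longer passed, 1 newly passed and 3 changed sign, all of them Bbc3 at 24 h (-0.24 with library totals, and -0.0683 to 0.111 when single libraries at 0 or 24 h were left out, below 0 without 0 h replicate 2 or 24 h replicate 1), which did not pass in the first place. Scaling by library totals moved every gene by -0.26 on the log2 scale at 24 h, and calls lower then made up 62.1% of all calls in place of 50.05%. The labels give no shared origin for libraries of the same number. Over 10472 genes their deviations correlated by 0.01 on average over 45 pairs of time points (-0.59 to 0.36), so the numbers were not taken as pairs. Of 20 libraries 14 correlated best with one of their own number. Both libraries of a time point give the same answer by construction, so these are not 20 separate matches. With a replicate block the member counts did not change (3 over the time course, 2 at 24 h), and Bid at 30 min and Mcl1 at 18 h no longer passed. The cause was not tested for any change given here unless a construction is named.

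At an adjusted p below 0.01 at any fold the calls against 0 h were 3, 6, 6, 6, 5, 5, 8, 7 and 6 in order of time, 8 over the time course and 8 for 24 against 2 h. For steps between neighbouring times they were 7, 4, 4, 4, 4, 5, 3 and 1 from 1 against 0.5 h on. At 1 h 2 members (Bcl2l1 and Bmf) were called with no filter on low counts or at an adjusted p below 0.05, and leaving out single libraries gave 1 to 2 at 2 h. With at least 10 counts required in every library Bmf was not tested, which left 1 call at 18, 21 and 24 h and 0 for the steps to 18 and 21 h. The step from 30 min to 1 h had 1 call (Bmf), 2 (with Bcl2l1) with DESeq2 size factors or library totals, and 0 to 2 without single libraries. The steps to 18 and to 21 h, with 1 call each (Bmf), had 0 in DESeq2 and in the fit of 4 libraries, and 0 to 1 without single libraries: 0 without either library at 15 h or 18 h replicate 1 for the former, and without 18 h replicate 2 or 21 h replicate 2 for the latter. In the list for turnover of MCL1, 2 calls were left of 4 with library totals.

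The equally weighted score changed by -0.72 at 2 h and -1.17 at 24 h. It was -0.54 and -1.34 with the 5 tested pro-death members, an alternative chosen after seeing the data, and -0.998 and 0.25 as the ratio of sums. At 2 h, leaving out Bcl2l1 gave -0.48, Mcl1 -0.95, Bmf -0.91, Bbc3 -0.85, Pmaip1 -0.59 and Bid -0.61, and single replicates -0.81 to -0.63. At 24 h a pseudocount of 0.5 CPM gave -0.95, and leaving out Bcl2 -0.26, Bcl2l1 -1.76, Mcl1 -1.49, Bmf -0.62, Bbc3 -1.24, Pmaip1 -1.24, Bid -1.38, Bax -1.33 and Bak1 -1.25, and single replicates gave -1.25 to -1.09. Depth limits Bmf, Bbc3 and Pmaip1 most.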
